A study of Mus musculus with 6 samples.

Results

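The genes described here are the receptors of type I and type II interferon and the proteins that carry their signal to DNA, measured in LSK cells of mice with and without the R355X allele of Etv6. They were taken by symbol from the deposited gene table: Ifngr1, Ifngr2, Ifnar1, Ifnar2, Irf1, Irf2, Irf9, Stat2 and Tyk2. These 9 genes are among 55573 rows that name a gene, and all 9 were among the 20646 genes that passed the filter on low counts. LSK cells are bone marrow cells that lack lineage markers and carry Sca-1 and c-Kit, a sorted mixture of stem cells and multipotent progenitors. The 6 libraries come from C57BL/6J mice of 3 months, 3 of them wild type (Etv6+/+) and 3 carrying Etv6 R355X/+ (called the mutant below). The genotype label of the mutant reads Etv6+/-, while the series text names R355X, and no treatment is listed for either genotype. Whether replicates are separate animals is not stated, so each p-value reflects only how these libraries spread, and that spread may be technical.

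Interferon gamma binds a receptor made of a ligand-binding chain, Ifngr1, and a signalling chain, Ifngr2, which use the kinases Jak1 and Jak2 to activate STAT factors. Type I interferons bind Ifnar1 and Ifnar2, which use Tyk2 and Jak1 to activate STAT factors, and Stat2 takes part with Irf9 in the DNA-binding complex ISGF3. Irf1 is an activator that interferon gamma induces, and Irf2 competes with it for the same DNA elements and mostly represses. In the bone marrow both kinds of interferon are known to drive quiescent stem cells into division, and Irf2 is known to restrain that response.

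Promoter sequences are shown first for Irf1 and Ifngr2, which had the largest fold changes of the mutant over wild type among the 9 genes, and for 2 that hold several matches, Irf2 and Ifnar1. They run from 250 bases before to 50 after a RefSeq start in GRCm38.p6, the assembly of mm10, 5′ to 3′ along the gene. All 9 genes matched that table, with 11 promoters in all, since Irf1 and Irf9 have 2 each. Irf1 is shown at chr11:53769764-53770063, Ifngr2 at chr16:91546809-91547108, Irf2 at chr8:46739495-46739794 and Ifnar1 at chr16:91484965-91485264, each on the plus strand. Capitals mark matches on either strand to TTCNNNGAA (the gamma-activated sequence bound by STAT dimers), GAAA-NN-GAAA (the core of the element bound by IRF factors and ISGF3) and CCGGAAGT (a motif of ETS factors).
Irf1: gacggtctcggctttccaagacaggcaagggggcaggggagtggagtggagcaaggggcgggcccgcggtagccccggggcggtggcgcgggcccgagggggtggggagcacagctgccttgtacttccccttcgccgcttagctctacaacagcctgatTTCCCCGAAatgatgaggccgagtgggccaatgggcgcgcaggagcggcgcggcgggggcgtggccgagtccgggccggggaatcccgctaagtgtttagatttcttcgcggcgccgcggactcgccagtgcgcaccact
Ifngr2: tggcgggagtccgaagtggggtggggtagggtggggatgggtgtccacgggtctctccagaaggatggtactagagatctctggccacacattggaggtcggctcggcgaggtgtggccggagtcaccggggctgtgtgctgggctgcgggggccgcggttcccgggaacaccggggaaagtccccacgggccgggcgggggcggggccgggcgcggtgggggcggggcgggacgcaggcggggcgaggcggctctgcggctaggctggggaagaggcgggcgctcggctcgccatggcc
Irf2: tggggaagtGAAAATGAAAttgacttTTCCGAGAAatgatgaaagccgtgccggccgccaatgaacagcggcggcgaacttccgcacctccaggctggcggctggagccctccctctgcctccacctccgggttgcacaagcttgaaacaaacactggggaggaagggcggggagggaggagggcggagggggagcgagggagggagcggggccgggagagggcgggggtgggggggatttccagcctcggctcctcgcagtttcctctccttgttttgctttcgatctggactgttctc
Ifnar1: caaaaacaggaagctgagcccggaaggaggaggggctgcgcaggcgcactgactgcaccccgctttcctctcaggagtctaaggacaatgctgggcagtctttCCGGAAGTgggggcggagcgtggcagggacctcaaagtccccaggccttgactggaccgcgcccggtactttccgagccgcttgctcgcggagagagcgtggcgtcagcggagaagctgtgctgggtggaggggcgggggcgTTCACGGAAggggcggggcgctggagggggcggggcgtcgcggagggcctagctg

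The gamma-activated sequence TTCCCCGAA begins 90 bases before the shown start of Irf1. Irf2 holds TTCCGAGAA, 224 bases before its start, and GAAAATGAAA, 241 bases before it. Ifnar1 holds TTCACGGAA 5 bases before its start and the ETS motif 147 bases before it. Among the genes not shown, Ifnar2 holds TTCCTGGAA 214 bases before its start, and Stat2 holds TTTCAGTTTC, which is the IRF element read on the other strand, 222 bases before it. The gamma-activated letters were thus in 4 of the 11 promoters, against 8.30% of all 32851 promoters in the table. The IRF element was in 2 of the 11 (3.44% of all promoters) and the ETS motif in 1 of the 11 (3.89%). None of these letters was in the windows of Ifngr1, Ifngr2, Irf9 or Tyk2. A match of letters is not a measured binding site.

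Libraries held 45.2 to 92.2 M expected counts, mutant replicate 1 being the deepest and also the highest in nuclear-encoded ribosomal RNA, with 8.61% against 6.30% to 7.19% in the others. Values are CPM, expected counts scaled to a TMM-adjusted library size of 1000000, and each of the 9 genes had between 819 and 7643 expected counts in every library. The sorting markers Kit and Ly6a were present in every library, at 351 to 451 and 71.7 to 93.5 CPM. Etv6 itself averaged 424 ± 27.2 CPM in the wild-type and 344 ± 40.5 in the mutant libraries (SD, n = 3), without overlap. Its log2 fold change of -0.30 had an adjusted p of 0.245 by edgeR's quasi-likelihood test after Benjamini-Hochberg adjustment, and passed with no filter on low counts (adjusted p = 0.0111; 0.0111 to 0.565 over all alternatives). Across all genes that test called 55 of 20646 (0.266%), and none of the 9 interferon genes was among them.

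The comparison of genotypes asks whether LSK cells with a mutant Etv6 allele differ in how much of the interferon receiving apparatus they transcribe. Irf1 and Ifngr2 stood above wild type in every mutant library, at 124% and 129% of the wild-type level, without passing the test over all genes. The other 7 genes had overlapping genotypes, with mutant means from 97.2% to 110% of wild type. In bulk RNA a change in the share of a cell type and a change in RNA per cell cannot be told apart. Of the 9 genes, 2 had an unadjusted p under 0.05, both higher, where 10.6% of all genes had one in either direction and 5.83% as higher. The same 2 genes were those without overlap, where 16.3% of all genes did not overlap, 8.45% with the mutant higher. Among the 5139 tested genes of like abundance, mean CPM 19.9 to 84.8, 13.0% had an unadjusted p under 0.05 and 18.1% did not overlap. The median log2 fold change of the 9 genes was 0.048 and that of all tested genes 0.0019, and 7 of the 9 were above 0 where 50.6% of all genes were.

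**Figure D1:**
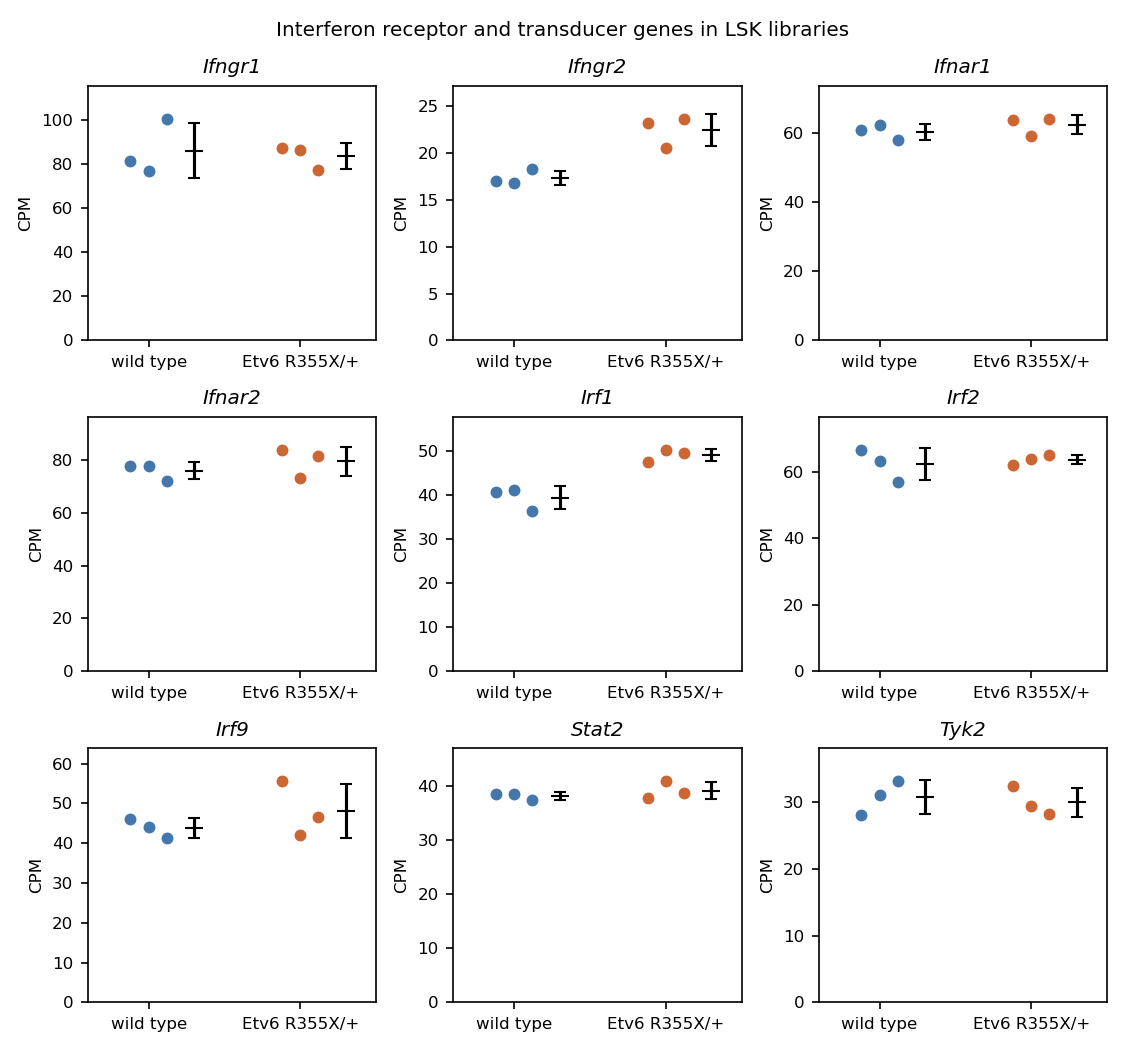
CPM of each of the 9 genes in the 3 wild-type (blue) and 3 mutant (orange) libraries, with the mean and SD of each genotype in black; each vertical axis starts at 0. The mutant points of Ifngr2 (20.5 to 23.6 CPM) and Irf1 (47.5 to 50.2 CPM) lie above all wild-type points, and the genotypes overlap in the other 7 panels.

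Transcripts of the ligand genes were hardly present in these cells, and interferon protein was not measured. Of 21 interferon genes, 17 were listed at 0 in all 6 libraries, Ifnb1 and all 13 listed genes named Ifna with a number among them. A count of 0 allows up to 0.0343 CPM in the deepest library and 0.0668 CPM in the shallowest, taking 3 counts as the limit of counting error. Ifng, the gene of interferon gamma, had 15, 1 and 0 expected counts in wild type and 16, 4 and 0 in the mutant. These counts spread as widely within each genotype as between them, and Ifng was not tested. Ifnk, an interferon gene best known from skin, was the only one to pass the filter, at a mean of 0.260 CPM in wild type and 0.287 CPM in mutant libraries.

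Among the receptor chains, the chains of the interferon gamma receptor followed different patterns over the libraries. Ifngr2 (chromosome 16, 91547072 to 91565623, plus strand) measured 17.0, 16.8 and 18.2 CPM in wild-type replicates 1, 2 and 3 and 23.2, 20.5 and 23.6 CPM in the mutant. The lowest mutant library was above the highest wild-type library. This is 129% of the wild-type level, with a 95% interval from 112% to 150% (log2 fold change 0.37, SE 0.097). The difference did not pass over all genes (unadjusted p = 0.00297, adjusted p = 0.207 by edgeR's quasi-likelihood test). An exact permutation test on log2 CPM (two-sided) gave p = 0.1, the smallest that 3 against 3 allows.

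Ifngr1 (chromosome 10, 19591949 to 19610229, plus strand), the ligand-binding chain, was at 81.2, 76.8 and 100.3 CPM in the wild-type and 87.4, 86.3 and 77.1 in the mutant libraries. Wild-type replicate 3 was the highest of all 6, and the other 5 libraries lay within 76.8 to 87.4 CPM. The log2 fold change was -0.041 (SE 0.097, adjusted p = 0.925 by edgeR), with an interval from 83.7% to 113% of wild type. Without wild-type replicate 3 it was 0.082, on the other side of 0.

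The log2 ratio of Ifngr1 to Ifngr2 within each library, in which scaling cancels, was 2.26, 2.20 and 2.46 in wild type and 1.91, 2.07 and 1.71 in the mutant. The means were 2.30 ± 0.14 and 1.90 ± 0.18 (SD, n = 3), and the genotypes did not overlap. The ratio is given as a description with no test of its own, since the pair was chosen with earlier results of these data known.

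The type I receptor chains showed no such separation. Ifnar1 (chromosome 16, 91485238 to 91507441, plus strand) was at 61.0, 62.3 and 57.9 CPM in the wild-type and 63.9, 59.3 and 64.0 in the mutant libraries. Its log2 fold change was 0.048 (SE 0.064), with an interval from 93.7% to 114% of wild type. Ifnar2 (chromosome 16, 91372783 to 91405589, plus strand), the chain with the higher affinity for ligand, was at 77.5, 77.6 and 72.0 CPM in the wild-type and 83.5, 73.2 and 81.4 in the mutant libraries. In both genes mutant replicates 1 and 3 were above all wild-type libraries and mutant replicate 2 was among them. The fold change of Ifnar2 was 0.068 on the log2 scale (SE 0.069), with an interval from 94.3% to 117%. Adjusted p was 0.844 for Ifnar1 and 0.780 for Ifnar2 by edgeR. Ifnar2 is known to give rise to soluble and membrane-bound forms, which a count per gene does not separate. The log2 ratio of Ifnar1 to Ifnar2 was -0.33 ± 0.018 in wild type and -0.35 ± 0.042 in the mutant (SD, n = 3), and the genotypes overlapped.

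Ifnar2, Il10rb, Ifnar1 and Ifngr2 lie in this order within 192.8 kb of chromosome 16, the mouse cluster of class II cytokine receptor genes. Il10rb, which serves as the second chain for interleukin 10 and interferon lambda, was at 25.9, 24.2 and 24.7 CPM in the wild-type and 26.6, 26.1 and 28.9 in the mutant libraries. The mutant libraries of Il10rb did not overlap wild type, with a log2 fold change of 0.13 (SE 0.084, adjusted p = 0.648 by edgeR). Set against its neighbour Ifnar1, the log2 ratio of Ifngr2 was -1.80 ± 0.12 in wild type and -1.48 ± 0.048 in the mutant (SD, n = 3), without overlap. Since Ifnar1 itself overlapped, this restates the separation of Ifngr2 and is not separate support.

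**Figure D2:**
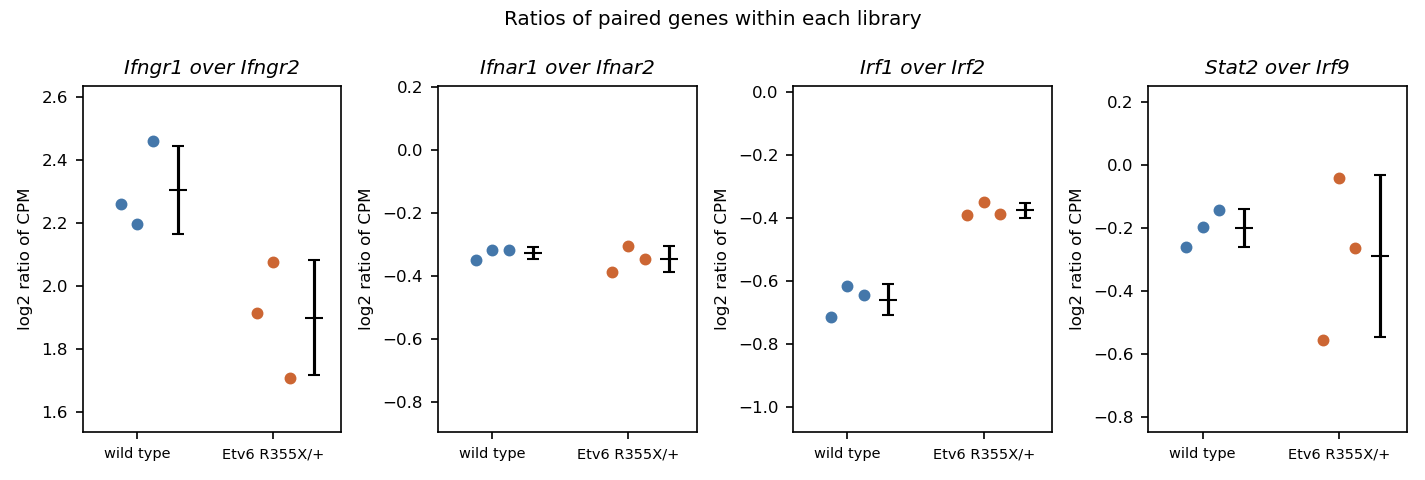
Log2 ratio of CPM of paired genes within each wild-type (blue) and mutant (orange) library, with mean and SD in black; all 4 vertical axes span the same width. Ifngr1 over Ifngr2 is lower and Irf1 over Irf2 higher in every mutant library, while the other pairs overlap.

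Irf1 (chromosome 11, 53770014 to 53778374, plus strand), the activator, was at 40.6, 41.2 and 36.5 CPM in the wild-type and 47.5, 50.2 and 49.7 in the mutant libraries. The gap between the genotypes was wider than the range within the mutant. The mutant mean came to 124% of the wild-type mean, with a 95% interval from 112% to 139% (log2 fold change 0.32, SE 0.072). Irf1 ranked 157 by p among 20646 genes and Ifngr2 295, and Irf1 had an unadjusted p of 0.00117 and an adjusted p of 0.154 by edgeR. The exact two-sided permutation p was 0.1, the smallest possible. DESeq2, run as an alternative, called both Irf1 (adjusted p = 0.0241) and Ifngr2 (adjusted p = 0.0298), where it called 1.77% of genes. edgeR with no filter on low counts, which called 1.58% of genes, called Irf1 alone. limma-voom called neither, and called 0.199% of genes. Over all 16 alternatives adjusted p ran from 0.0241 to 0.379 for Irf1 and from 0.0298 to 0.566 for Ifngr2, and both had an unadjusted p under 0.05 in all 16.

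Irf1 shares 135 exonic bases with Gm17334, a gene annotated on the opposite strand, and the counts carry no strand. Gm17334 itself had wild-type values of 21.6, 16.6 and 21.6 CPM and mutant values of 16.6, 19.6 and 16.4 CPM. Summed with it, Irf1 came to 62.2, 57.9 and 58.0 CPM in the wild-type and 64.1, 69.8 and 66.0 in the mutant libraries. The sum did not overlap between genotypes either, but the log2 ratio of its means was 0.17, smaller than the 0.32 of Irf1 alone. How reads were divided between these 2 genes was not tested.

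Irf2 (chromosome 8, 46739732 to 46847458, plus strand), the repressor, was at 66.5, 63.2 and 57.0 CPM in the wild-type and 62.1, 63.9 and 65.0 in the mutant libraries. All mutant values fell inside the wild-type range. Its log2 fold change was 0.032 (SE 0.070, adjusted p = 0.917 by edgeR), within 91.8% to 114% of wild type, and was -0.0034 with library size alone and -0.027 without wild-type replicate 3. The log2 ratio of Irf1 to Irf2 was -0.71, -0.62 and -0.64 in wild type and -0.39, -0.35 and -0.39 in the mutant. The means of that ratio were -0.66 ± 0.049 and -0.38 ± 0.023 (SD, n = 3), and the genotypes did not overlap. As Irf2 itself overlapped, this restates the separation of Irf1 and is not separate support.

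Irf9, Stat2 and Tyk2 serve the type I pathway. Stat2 (chromosome 10, 128270559 to 128292849, plus strand) was at 38.5, 38.5 and 37.3 CPM in the wild-type and 37.8, 40.8 and 38.7 in the mutant libraries. It was the least variable of the 9 in wild type, with a coefficient of variation of 1.78%. Its mutant level lay within 92.4% to 114% of wild type (log2 fold change 0.036, SE 0.068, adjusted p = 0.900 by edgeR).

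Irf9 (chromosome 14, 55603571 to 55610030, plus strand), the DNA-binding part of ISGF3, was at 46.2, 44.2 and 41.2 CPM in the wild-type and 55.6, 42.1 and 46.5 in the mutant libraries. The value of 55.6 belongs to mutant replicate 1, and the other mutant libraries lay close to wild type. The log2 fold change was 0.13 (SE 0.099, adjusted p = 0.683 by edgeR), and 0.014 without mutant replicate 1. Irf9 shares 123 exonic bases with its upstream neighbour Rnf31 on the same strand, which averaged 28.3 ± 1.65 CPM (wild type) and 28.8 ± 5.30 CPM (mutant; SD, n = 3). The log2 ratio of Stat2 to Irf9 spread from -0.56 to -0.044 in the mutant and from -0.26 to -0.14 in wild type.

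Tyk2 (chromosome 9, 21104068 to 21131243, minus strand), the kinase of Ifnar1, was at 28.1, 31.0 and 33.2 CPM in the wild-type and 32.4, 29.4 and 28.2 in the mutant libraries. The mutant values all fell inside the wild-type range. The log2 fold change was -0.035 (SE 0.092, adjusted p = 0.937 by edgeR), within 84.8% to 112% of wild type, and 0.023 without wild-type replicate 3. An antisense gene that shares 554 exonic bases with Tyk2 averaged under 0.3 CPM in both genotypes.

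**Figure D3:**
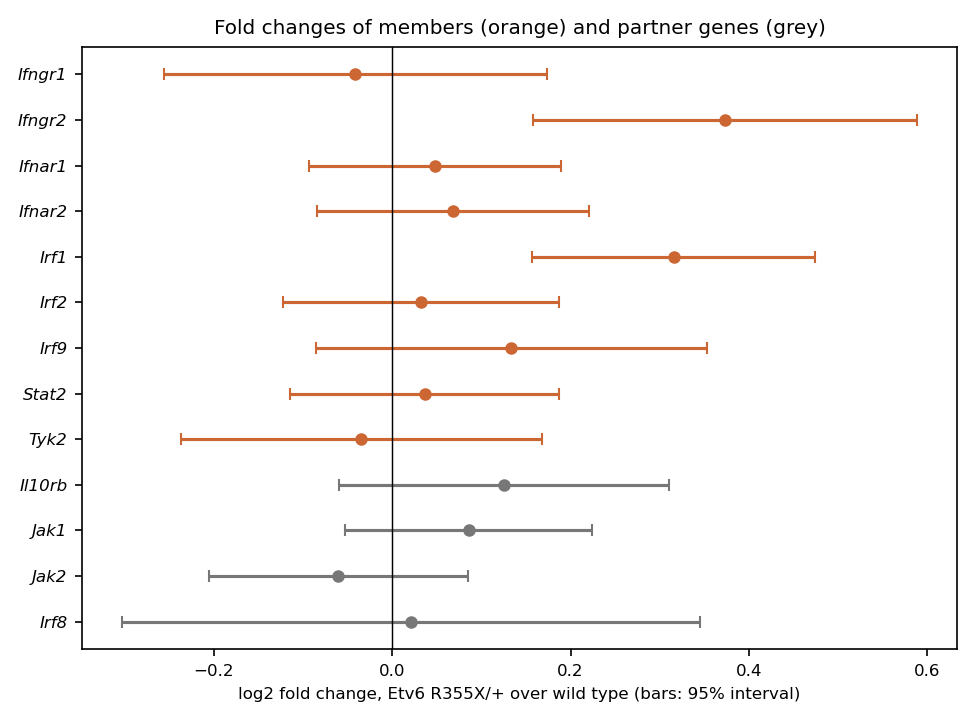
Log2 fold change of the mutant over wild type with its 95% interval for the 9 genes (orange) and 4 partner genes (grey). The intervals of Ifngr2 (0.16 to 0.59) and Irf1 (0.16 to 0.47) lie above 0, unadjusted for the number of genes tested, and the others include 0.

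Levels of different genes were compared per kilobase, in CPM per kb of the principal protein-coding transcript. In wild type Ifngr1 was highest at 40.8 ± 5.92, followed by Irf2 at 24.9 ± 1.93 and Ifnar2 at 24.9 ± 1.05, whose libraries overlapped. Irf1 at 18.5 ± 1.21 and Irf9 at 17.8 ± 1.01 also overlapped, with Ifnar1 just below at 15.4 ± 0.577. Stat2 at 8.67 ± 0.154, Tyk2 at 6.37 ± 0.529 and Ifngr2 at 4.67 ± 0.212 were the lowest. The 2 chains of the interferon gamma receptor thus stood at opposite ends of the order, in the mutant as well, where Ifngr1 had 39.6 ± 2.69 and Ifngr2 6.05 ± 0.454 CPM per kb. With all annotated exons merged as the length, Irf2 went from place 2 to place 5 in wild type, since its merged exons span 7.40 kb against 2.50 kb for the transcript. Ifngr1 stayed first and Ifngr2 and Tyk2 filled the last 2 places with either length.

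**Figure D4:**
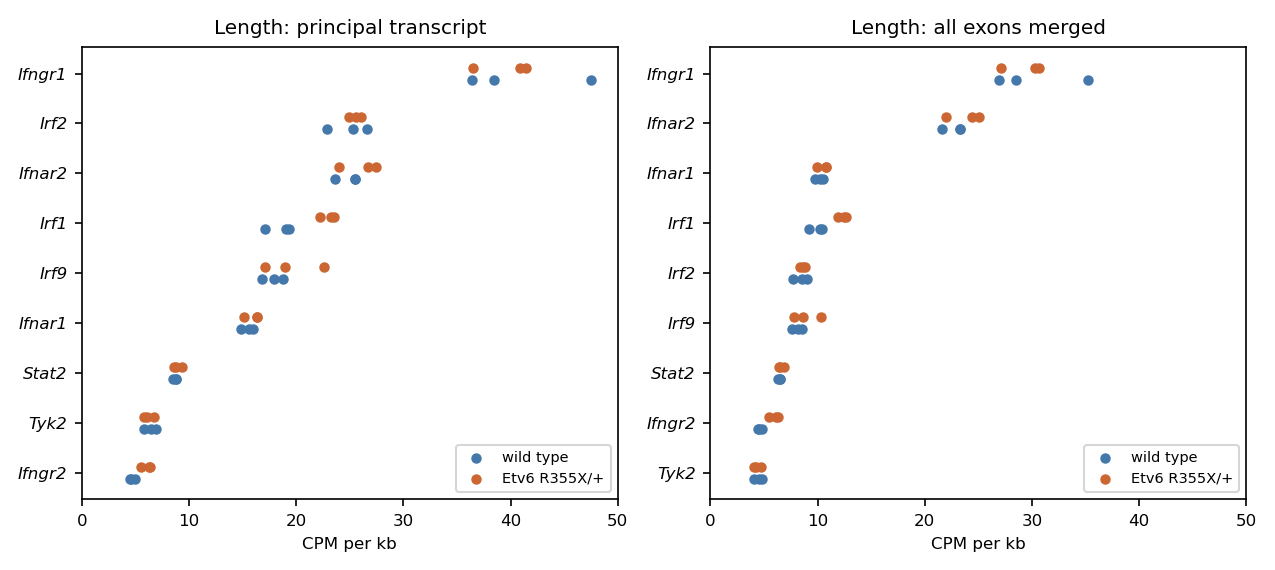
CPM per kb of the 9 genes in each wild-type (blue) and mutant (orange) library, with length taken from the principal transcript (left) or from all exons merged (right), sorted by the wild-type mean. Ifngr1 is highest and Ifngr2 and Tyk2 lowest in both panels, while Irf2 changes place.

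The genes most like each of the 9 were taken as those with the smallest root mean square difference of centred log2 CPM over the 6 libraries, among 8638 genes with a mean of at least 10 CPM. For Irf1 they were Gcnt1, a glycosyltransferase gene (difference 0.032), Rnf130 (0.039) and Nfkbie, an inhibitor of NF-kappaB (0.042). The median candidate differed from Irf1 by 0.20. For Ifngr2 they were Nfkbia, another inhibitor of NF-kappaB (0.045), the chaperone gene Dnajb1 (0.054) and the phosphatase gene Dusp7 (0.062), against 0.23 for the median candidate. Ifngr1 was nearest to Cdk1, the kinase that drives mitosis (0.028), Hacd2 (0.030) and the replication gene Ticrr (0.033), all of which were also highest in wild-type replicate 3. Irf9 was nearest to Ociad1 (0.030), Ccm2 (0.030) and Atp5g2 (0.031), highest like it in mutant replicate 1. Ifnar1 was nearest to Senp1, Ifnar2 to Cd53, Irf2 to Chd2, Stat2 to Arid3b and Tyk2 to Ran, at differences from 0.013 to 0.025.

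The partners that complete the pathway differed little between genotypes. Of 9 other JAK and STAT genes, all tested, 5 were above 0 and 4 below, with a median log2 fold change of 0.00074 that took either sign when single libraries were left out. None passed over all genes, and none had an unadjusted p under 0.05 by edgeR. Jak1, shared by both receptors, averaged 193 ± 12.6 CPM (wild type) and 205 ± 3.36 CPM (mutant), and Jak2 68.0 ± 2.72 and 65.2 ± 3.50 CPM.

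Of 9 other IRF genes and IRF2 cofactors, 6 were above 0 and 3 below, and 0 passed. Their median log2 fold change was 0.066, but -0.025 without mutant replicate 1 and -0.012 without wild-type replicate 3. The 1 with an unadjusted p under 0.05 by edgeR was Irf2bp2, an IRF2-binding corepressor gene, lower at 372 ± 19.4 and 328 ± 34.1 CPM (log2 fold change -0.18, adjusted p = 0.454). Without mutant replicate 1 its log2 fold change was -0.11. Irf8, the myeloid and lymphoid lineage factor, measured 42.7 ± 8.04 and 43.3 ± 7.85 CPM. Of 7 tested genes for other class II cytokine receptors 5 were above 0, and 0 passed. Their median of 0.37 was the value of Il10ra itself, and it was 0.25 with a minimum count of 50. An unadjusted p under 0.05 by edgeR was found for 2, both higher. Over all genes 10.6% had one in either direction and 5.83% as higher. The 2 were Il10ra, the ligand-binding chain for interleukin 10 (15.0 ± 1.29 and 19.3 ± 1.98 CPM, adjusted p = 0.286), and Il22ra2, a soluble decoy receptor (1.56 ± 0.0594 and 2.62 ± 0.440 CPM, adjusted p = 0.252).

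Of 13 inhibitors of the pathway 10 were below 0, with 3 above, and 0 passed. Their median was -0.10, and -0.033 without mutant replicate 2. Ptpn1, Ptpn6, Pias1 and Pias3, genes of phosphatases and STAT inhibitors, had all mutant libraries below wild type, with log2 fold changes from -0.13 to -0.10. None of these 4 had an unadjusted p under 0.05 by edgeR (0.070 to 0.350). For Ptpn6 the lowest wild-type library had 84.4 CPM and the highest mutant library 84.2 CPM. Over all genes 16.3% did not overlap in either direction, 8.45% with the mutant higher and the rest with it lower. Socs2, a feedback inhibitor of cytokine signalling, was the only 1 of the 13 with an unadjusted p under 0.05 by edgeR. Of all genes 10.6% had one in either direction. Socs2 measured 6.08 ± 1.62 and 4.13 ± 0.610 CPM (log2 fold change -0.56, adjusted p = 0.399 by edgeR), with overlapping genotypes. Without wild-type replicate 2 its log2 fold change was -0.33. Socs1, the main inhibitor of the interferon gamma receptor and itself a target of Irf1, measured 1.08 and 1.10 CPM (log2 fold change 0.020).

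Downstream, the list of interferon gamma and Irf1 targets and the list of ISGF3 targets were set beside these levels. Of 21 interferon gamma and Irf1 targets 19 were above 0, with a median log2 fold change of 0.21. The median was 0.13 without mutant replicate 2 and 0.32 without mutant replicate 3. An unadjusted p under 0.05 by edgeR was found for 8 of them, all higher (5.83% of all genes), and 0 passed over all genes. The GTPase genes Ifi47, Gbp3 and Gbp6 and the immunoproteasome subunit gene Psmb9 had the smallest p, with log2 fold changes of 0.29, 0.30, 0.56 and 0.25 (adjusted p from 0.209 to 0.364). Ifi47 passed with DESeq2 (adjusted p = 0.0497) and with no filter on low counts (adjusted p = 0.0185), within a range of 0.0185 to 0.459 over all alternatives. Without mutant replicate 1 the log2 fold change was 0.36 for Gbp6 and 0.15 for Psmb9. Earlier results of these data already showed this list's direction, so it is not separate support. Of 18 ISGF3 targets 8 were above 0 and 10 below, with a median of -0.053, and 0.0098 without mutant replicate 2. There 1 had an unadjusted p under 0.05 by edgeR, the antiviral synthetase gene Oas2 (29.6 ± 1.51 and 36.2 ± 7.41 CPM, adjusted p = 0.456), and 0 passed. Its log2 fold change was 0.29, and 0.12 without mutant replicate 3.

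The summed level of the 21 interferon gamma and Irf1 targets was 972, 955 and 915 CPM in the wild-type libraries, and 1110, 1124 and 972 CPM in mutant replicates 1, 2 and 3. Mutant replicate 3 was thus level with wild-type replicate 1 in this sum, in which the most abundant targets weigh most. That library had 49.7 CPM of Irf1 and 23.6 CPM of Ifngr2. How the targets relate to these 2 genes was not tested, and 1 library cannot show it.

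**Figure D5:**
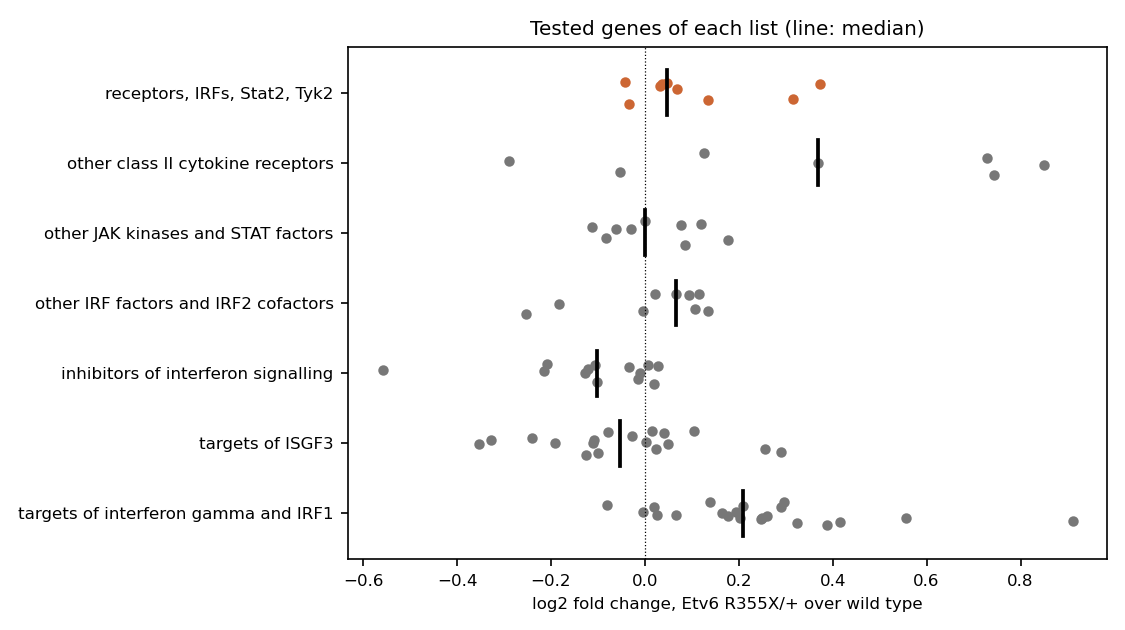
Log2 fold change of the mutant over wild type for every tested gene of each list, with the list median as a black line; vertical scatter within a list carries no information. The interferon gamma and Irf1 targets lie mostly above 0 (19 of 21), the ISGF3 targets on both sides (8 above, 10 below).

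Markers of more mature cells were compared between genotypes as well. All 8 B cell markers were above 0, and 6 had an unadjusted p under 0.05 by edgeR, where 5.83% of all genes had one as higher. Of the 8, 5 did not overlap between genotypes, Ighm among them, where 8.45% of all genes had the mutant higher without overlap. The list summed to 1407 to 2230 CPM in wild-type libraries and to 2288 to 2669 CPM in mutant libraries. Ighm alone made up most of each sum, so the sums say little about the other markers. It had 1623, 2143 and 1297 CPM in wild-type replicates 1, 2 and 3. Mutant replicates 1, 2 and 3 had 2165, 2510 and 2171 CPM of Ighm. Of 10 macrophage and dendritic cell markers 8 were above 0, all 8 with an unadjusted p under 0.05 by edgeR (5.83% of all genes as higher). Of these, 5 did not overlap between genotypes, where 8.45% of all genes did so with the mutant higher. Siglech was lower, with an unadjusted p of 0.00543 by edgeR. The sums of this list overlapped, from 73.8 to 89.5 CPM in wild type and from 85.9 to 126 CPM in the mutant. All 6 mast cell and basophil markers were above 0, 4 of them with an unadjusted p under 0.05 by edgeR and 3 without overlap. The shares of all genes, as higher, were 5.83% and 8.45%. Their sums ran from 93.9 to 98.4 CPM in wild type and from 107 to 118 CPM in the mutant. Gata2, at 59.0 to 68.6 CPM over the libraries, made up a large part of each sum. It had overlapping genotypes and a log2 fold change of 0.064. No marker of these 3 lists was at 0 in all libraries. Neutrophil, erythroid, and T and natural killer cell sums overlapped as well. The markers that passed edgeR's test over all genes, all higher in the mutant, were the beta-globin genes Hbb-bt and Hbb-bs, Klrb1c of natural killer cells and Fcer1a of mast cells and basophils (adjusted p = 0.00213, 0.0311, 0.0177 and 0.00522). The erythroid list was mixed, with 5 of 8 markers above 0 and 3 below. Hba-a1 and Hba-a2 had log2 fold changes of 0.024 and 0.061, and Klf1 -0.28. Of 9 T and natural killer cell markers 5 were above 0 and 4 below. Among them Cd4 was lower without overlap (log2 fold change -1.17, adjusted p = 0.132 by edgeR). Of 10 LSK and progenitor markers 9 were below 0. The sums of all 10 overlapped, from 1622 to 2083 CPM in wild type and 1659 to 1873 CPM in mutant libraries. Of these markers 2 were lower without overlap and had an unadjusted p under 0.05 by edgeR. The shares of all genes, in either direction, were 16.3% and 10.6%. The 2 were Procr (21.9 ± 2.01 and 16.3 ± 0.796 CPM, adjusted p = 0.169) and Cd48 (84.9 ± 6.39 and 73.4 ± 4.95 CPM, adjusted p = 0.371). Mutant replicate 3 had the lowest mutant sum for B cell, macrophage and mast cell markers. The part of these cells in the values of Irf1 and Ifngr2 was not tested.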

How the data were processed

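The authors deposited expected counts for each gene in each library, unscaled. The submitters' processing notes name Trim Galore 0.60, STAR 2.7, RSEM 1.31 and mm10. The annotation release is not given in the sources used here. Per the labels' protocols, amplified total-RNA cDNA was sequenced, which marks no strand. Reads shared by several genes are split by estimation, which bears on overlapping genes.

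Expected counts were rounded, filtered (filterByExpr, minimum count 10) and scaled by TMM. The test of genotype used edgeR 4.0.16 (quasi-likelihood, R 4.3.3, two-sided, no covariates), with Benjamini-Hochberg adjustment over all 20646 tested genes and a threshold of 0.05. SEs were computed from the F statistic, and 95% intervals from the moderated t distribution. Alternatives were DESeq2 1.42.0, limma-voom 3.58.1, other scalings, filters and row sets, a replicate block and left-out libraries. The fits were tested on simulated data. Positions and lengths come from GENCODE M21 (same build), which matched 55394 of 55573 gene rows. The 92 spike-in rows, all at 0, were left out. Replicates differed by more than sampling noise (chi-square per gene 11.2 to 46.5).

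The 9 genes, the gene lists and the alternatives were chosen with earlier results of these data known. Named genes are the 9, up to 4 per pathway list with an unadjusted p under 0.05, fixed partners (Jak1, Jak2, Irf8, Il10rb), Etv6 and the 3 genes most like each of the 9. Other genes named, such as Ifng, Ifnz, Socs1, Ptpn1, Ptpn6, Pias1, Pias3, marker genes and overlapping genes, were added after their values were seen. Some genes that the rule or the lists take are not reported here.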

Additional observations from a re-analysis of the deposited data

How the results depend on the processing

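Irf1 and Ifngr2 kept their direction and an unadjusted p under 0.05 in all 16 alternatives, with log2 fold changes from 0.26 to 0.35 and from 0.34 to 0.43. None of the 9 genes passed over all genes in edgeR's main test. DESeq2 called 2 of them, and edgeR with no filter on low counts called 1, Irf1 (adjusted p = 0.0327; 0.0241 to 0.379 over all alternatives), where it called 1.58% of genes. The count over all genes was 55, against 329 with DESeq2, 527 with no filter, 32 with the replicate block and 16 to 67 when 1 library was left out (23 without wild-type replicate 1, 16 without wild-type replicate 2, 26 without mutant replicate 1 and 18 without mutant replicate 2). The cause of these shifts was not tested. Replicate numbers name no shared animal, and same-numbered libraries did not deviate together (correlations across genes of -0.020, -0.014 and -0.072). No library correlated best with its own number. Some small values changed sign, none of them near the threshold. With 1 library left out, Ifngr1 ran from -0.12 to 0.082, Irf2 from -0.027 to 0.083, Tyk2 from -0.097 to 0.023 and Irf8 from -0.11 to 0.18. With mutant replicate 1 and wild-type replicate 3 both left out, the values were 0.050 for Ifngr1, -0.0052 for Ifnar2, -0.0093 for Irf2, -0.028 for Irf9 and 0.0018 for Jak2. With library size alone they were -0.0034 for Irf2 and -0.018 for Irf8. At these depths most interferon ligand genes had no count, and the spread between replicates sets the intervals of the 9 genes. The median over other IRF genes and cofactors was -0.056 with mutant replicate 1 and wild-type replicate 3 both left out.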

Other observations

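Ifnz, a type I interferon gene of the limitin family, had 1 expected count in each wild-type library and 12, 5 and 7 in mutant replicates 1, 2 and 3. It did not pass the filter on low counts and was singled out after its values were seen. Its mutant levels of 0.137, 0.0959 and 0.156 CPM stood above the limit that a count of 0 allows in each library (0.0343, 0.0575 and 0.0668 CPM). Wild-type levels, from 0.0163 to 0.0205 CPM, were below that limit but rest on 1 count each. The limit is that of a count of 0, so it does not show Ifnz to be absent in wild type. Ifnz has near-identical relatives in the genome, so the assignment of these reads is uncertain.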
